A study of Mus musculus with 4 samples.

Results

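The response of Lamp2a knockdown 3T3L1 preadipocytes to 2 days of adipogenic induction was read by comparing the array labelled as knockdown at day 2 with the array labelled as knockdown at day 0. These are 2 of the 4 arrays of the series, and both lay on the same slide. 3T3L1 is a clonal mouse fibroblast line committed to the fat lineage. The knockdown cells, labelled lamp2a-, were grown to confluence in medium with 10% serum (day 0). They were then given 160 nM insulin, 250 nM dexamethasone and 0.5 mM isobutylmethylxanthine in that medium until day 2. The other arrays hold control cells of the same line at the same days under the same treatment. Each group had 1 array. The means of lowering LAMP2A is not stated in the sources at hand, nor is the number of cultures or clones behind an array. No day 2 array of cells left without hormones was analysed here, so the effect of the hormones and that of time at confluence cannot be told apart.

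Probes with a processed signal over 400 on at least 1 of both arrays were kept, which left 21621 of 55681 probes and 11692 named genes. Probes just outside that limit were those of Gna12 (399.281 at day 0 and 384.265 at day 2) and Ddx59 (399.932 and 287.97), and just inside those of Alox12b (400.016 and 254.349) and Slc26a6 (400.027 and 204.012). A level is given as a scaled signal, the processed signal divided by the 75th percentile of its array and multiplied by 1000, and pairs of values are in the order day 0, day 2. A gene is called higher or lower at day 2 where the scaled signals differ by at least 2-fold. With 1 array per day there is no replicate check and no test was run, so every value describes these arrays. Repeat spots measure the error within an array only: over 226 kept probes printed at least 8 times, the median spot SD of the log2 ratio was 0.067.

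In textbook adipogenesis, insulin, a glucocorticoid and a phosphodiesterase inhibitor act together on confluent preadipocytes. Dexamethasone binds the glucocorticoid receptor, isobutylmethylxanthine keeps cAMP from being broken down, and insulin at high dose acts on insulin and IGF1 receptors. C/EBPβ and C/EBPδ come first, cells pass through a limited round of division, and PPARγ and C/EBPα then switch on the genes of the fat cell. LAMP2A is the lysosomal membrane receptor of chaperone-mediated autophagy, in which single cytosolic proteins are carried into the lysosome.

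Both Lamp2 probes were read on every array. The probe annotated to NM_001017959 had scaled signals of 4791 and 3265 in knockdown cells at day 0 and day 2, and of 19936 and 11436 in control cells. The probe annotated to NM_010685 had 60013 and 63074 in knockdown cells and 77707 and 68060 in control cells. The first probe was thus 4.16-fold and 3.50-fold lower in knockdown cells at day 0 and day 2, and the second 1.29-fold and 1.08-fold lower. Within knockdown cells the first probe was 1.47-fold lower at day 2 than at day 0 and the second 1.05-fold higher. Which splice form each probe reads is not given in the files.

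Most listed markers of fibroblasts were read on both arrays. Of 15 fibroblast markers, 14 were over the signal limit, and the summed scaled signal of the list was 1124107 at day 0 and 1124578 at day 2. These near-equal sums cover differences in both directions. Of the 14, 3 were higher and 3 lower, where 6.24% and 10.3% of all compared genes were. Ly6a was 2.51-fold, Fn1 2.44-fold and Prrx1 2.12-fold higher. Both Fn1 and Prrx1 came under 2-fold after quantile normalization and cyclic loess. Pdgfrb was 3.93-fold and Fap 3.23-fold lower. Vimentin (Vim, 180004 and 175034) and the collagen gene Col1a2 (248170 and 195293) were among the brightest. The surface antigen gene Cd34 had 318 at day 0 and 9.06 at day 2, where it was not well above background, and was at least 18.9-fold lower (4.69-fold with normexp background correction). For other cell types, 4 of 8 macrophage, 2 of 8 endothelial, 4 of 10 skeletal muscle, 4 of 8 bone and cartilage, 1 of 7 epithelial and 1 of 6 neuronal markers were over the limit. Their summed scaled signals at day 0 and day 2 were 31595 and 37956, 3234 and 3993, 2219 and 1367, 10045 and 13312, 842 and 657, and 22067 and 27773 in that order. All 14 housekeeping genes were within 2-fold. Most of the macrophage signal was that of Itgam (27349 and 35234), and most of the neuronal signal that of Snap25 (21681 and 27652). The endothelial receptor gene Kdr (2655 and 3468) and the macrophage receptor gene Csf1r (2641 and 1746) were also over the limit, as were Pecam1, Cd14, Aif1 and Myod1. The bone and cartilage markers over it were Sox9 (7834 and 11372), Runx2 (1421 and 1044), Sp7 and Alpl, and Alpl was 5.93-fold higher at day 2. Other listed markers, among them Ptprc, Adgre1, Cdh5, Tie1, Myf5, Epcam and Rbfox3, were under the limit on both arrays.

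At day 2, 730 of the 11692 genes were at least 2-fold higher and 1208 at least 2-fold lower, so that the background against which a gene list is read is 6.24% higher and 10.3% lower. A 10-fold difference was passed by 45 genes upward and 125 downward. The median log2 ratio of all genes was 0.06, and after cyclic loess normalization it was -0.05. Lower calls were more frequent among dim genes: of 5 equal classes by brightness the dimmest had 497 lower and 132 higher, the brightest 80 lower and 174 higher. With the limit of 400 required on both arrays, 646 genes were higher and 686 lower. Of 347 called genes with several kept probes, 333 had every probe on the same side.

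**Figure D1:**
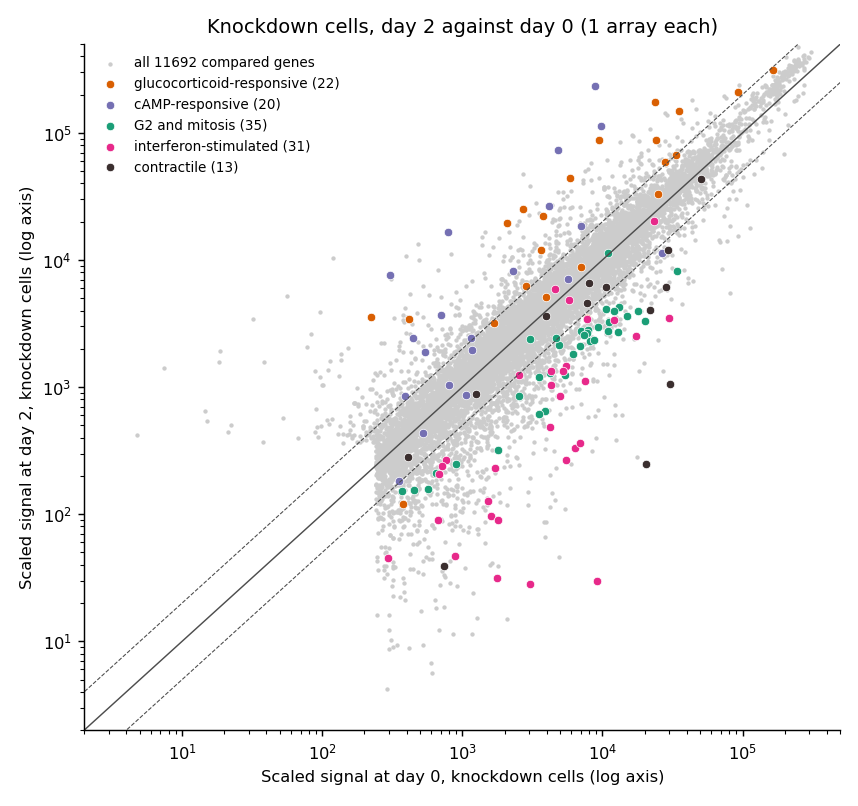
Scaled signal at day 2 (vertical, log axis) against day 0 (horizontal, log axis) for the 11692 genes compared in knockdown cells, 1 array per day; the solid line marks equal signals and the dashed lines 2-fold differences. Most glucocorticoid- and cAMP-responsive genes lie above the upper dashed line, and 32 of 35 genes of G2 and mitosis, 28 of 31 interferon-stimulated genes and 6 of 13 contractile genes lie below the lower one.

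Hormone-responsive genes were among the groups with the most members higher at day 2. Of 22 glucocorticoid-responsive genes compared, 15 were at least 2-fold higher and 2 lower, with a median log2 ratio of 1.44. Of 20 cAMP-responsive genes 13 were higher and 1 lower, with a median of 1.60. Of 18 genes of insulin signalling 8 were higher and 2 lower, with a median of 0.80. All 3 shares of higher members lie above the background of 6.24%.

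The glucocorticoid list was led by Zbtb16, a zinc finger transcription factor, with a scaled signal of 222 at day 0 and 3549 at day 2, 16.0-fold higher. Dusp1, a phosphatase that switches off MAP kinases, had 2077 and 19632 and was 9.45-fold higher. Tsc22d3, which encodes the glucocorticoid-induced leucine zipper GILZ, had 9399 and 87769 and was 9.34-fold higher. Glutamine synthetase (Glul) was 9.24-fold higher, the iron carrier gene Lcn2 8.26-fold, and Fkbp5, which restrains the glucocorticoid receptor, 7.46-fold. Sgk1, a kinase gene known as a direct receptor target, was already bright at day 0 and differed little, with 25078 and 32867. Lower members were Hif3a, with 378 and 120.2 and 3.15-fold lower, and the crosslinking enzyme gene Tgm2. Klf15 and Cdkn1c stayed under the signal limit on both arrays and were not compared.

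Among cAMP-responsive genes the regulator of G protein signalling Rgs2 had a scaled signal of 8853 at day 0 and 235143 at day 2 and was 26.6-fold higher. With the median of both its probes it was 42.7-fold higher. Pde4d and Pde4b encode phosphodiesterases that break down cAMP. Pde4d had 303 and 7592 and a log2 ratio of 4.65 (13.5-fold as the median of its probes), and Pde4b had 791 and 16638 and was 21.0-fold higher. The bZIP repressor gene Nfil3 was 15.1-fold higher and the orphan nuclear receptor gene Nr4a1 11.6-fold, from 9809 and 113665. Egr1, a zinc finger factor of the serum response, went the other way, with 26822 and 11373, 2.36-fold lower. The wider family of phosphodiesterase and RGS genes was divided, with 6 of 16 higher and 3 lower: Pde1a, of the calmodulin-dependent class, was 5.01-fold higher while Pde1b of that class, with 2413 and 283, was 8.52-fold lower. Rgs16 was 5.63-fold lower.

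**Figure D2:**
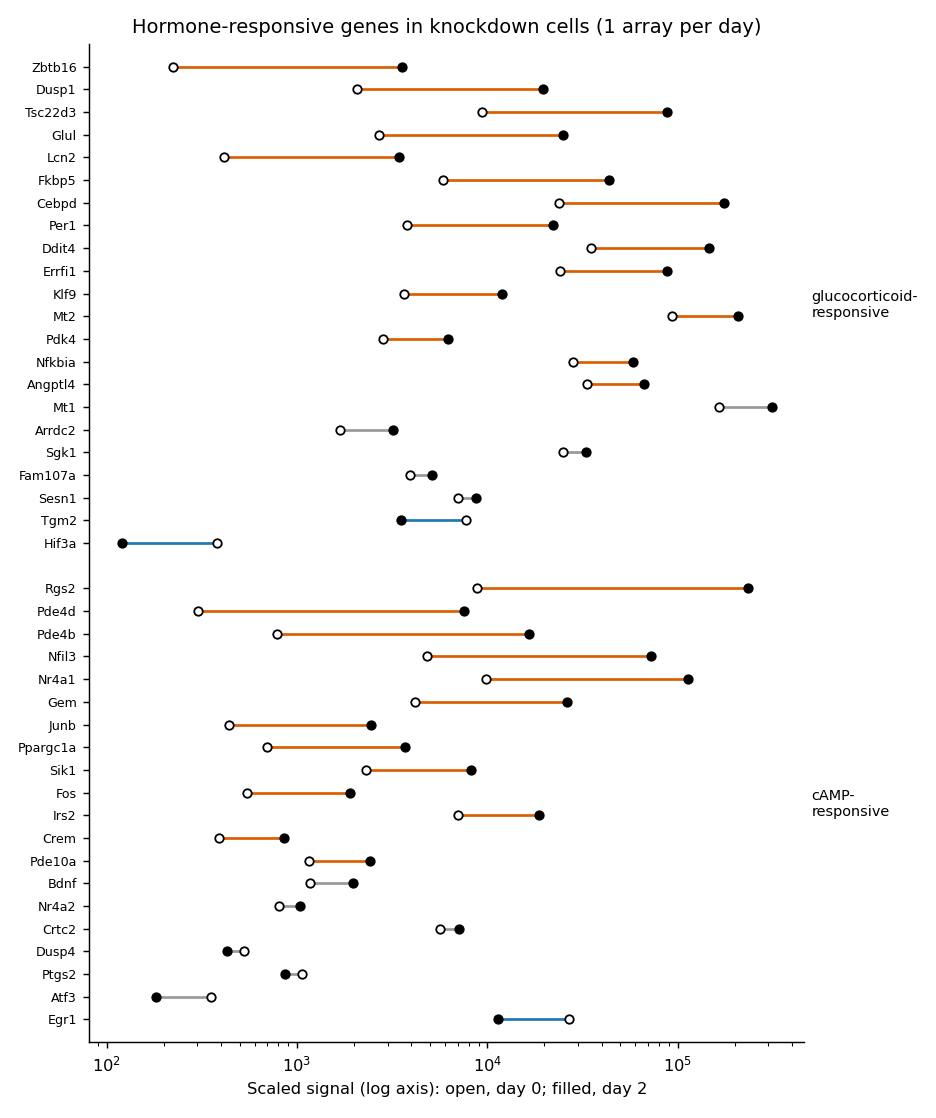
Scaled signal (log axis) at day 0 (open) and day 2 (filled) of the 22 glucocorticoid-responsive and 20 cAMP-responsive genes compared in knockdown cells, 1 array per day; orange lines are at least 2-fold higher, blue lines at least 2-fold lower, grey lines within 2-fold. The longest orange lines are those of Rgs2, Pde4d, Pde4b and Zbtb16, and Egr1, Tgm2 and Hif3a are blue.

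In the insulin list, the insulin receptor substrates took opposite sides: Irs1 was 3.96-fold lower, with 5207 and 1315, and Irs2, itself cAMP-responsive, was 2.63-fold higher, with 7059.9 and 18602. The transcription factor gene Foxo1, which insulin signalling keeps out of the nucleus, was 3.58-fold higher, and the cAMP-hydrolysing enzyme gene Pde3b, through which insulin opposes lipolysis, 3.47-fold higher. Trib3, an inhibitor of the kinase AKT and a target of the stress factor ATF4, was 4.34-fold lower. Of 21 nuclear receptor genes 5 were higher and 1 lower, where 6.24% and 10.3% of all genes were. Among the 5 was Nr2f2, at 2.00-fold, which came under 2-fold after quantile normalization, cyclic loess and with normexp. The lower one, Nr1h3, also came under 2-fold with normexp. The receptor for dexamethasone, Nr3c1, had 16239 and 15983, within 2-fold. The vitamin D receptor gene Vdr was 5.51-fold higher, the retinoic acid receptor gene Rara 3.12-fold and Rxra, the partner of PPARγ, 2.70-fold.

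The promoters of the hormone-responsive genes were searched for the receptor and CREB motifs in the 250 bases before each start site, on both strands, with sequences from RefSeq on GRCm38.p6. The loose glucocorticoid receptor motif, GNACA and TGT separated by any 3 bases, was in 6 of 30 promoters of the glucocorticoid list, against 1.80% of the promoters of compared genes and 2.61% of all 32851. The full palindrome, AGAACA and TGTTCT separated by any 3 bases, contains the loose form and was in 1 promoter of the list, that of Sgk1, and in 3 of all promoters. The short CREB site TGACG was in 10 of 24 promoters of the cAMP list (41.7%), against 26.1% of those of compared genes and 17.8% of all. In the other lists searched it was in 11.1% (interferon-stimulated) to 33.3% (glucocorticoid) of promoters. The full site TGACGTCA, which contains the short one, was in 0 of 24, against 2.52% of those of compared genes and 1.55% of all. A match is a description of the letters and does not show binding. Shown are stretches with the receptor motif from Glul and Lcn2, which were higher at day 2, and Sgk1, which was within 2-fold, and with the short CREB site from the strongly higher Rgs2 and Nr4a1. Each is 5′ to 3′ on the strand of the gene, with motif letters in capitals.
Glul, chr1:153899876-153899928, plus strand: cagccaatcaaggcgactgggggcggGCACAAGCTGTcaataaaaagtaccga
Lcn2, chr2:32387851-32387921, minus strand: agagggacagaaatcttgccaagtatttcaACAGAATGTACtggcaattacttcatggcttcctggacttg
Sgk1, chr10:21993671-21993745, plus strand: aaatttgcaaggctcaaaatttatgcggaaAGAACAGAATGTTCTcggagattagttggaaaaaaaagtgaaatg
Rgs2, chr1:144004192-144004354, minus strand: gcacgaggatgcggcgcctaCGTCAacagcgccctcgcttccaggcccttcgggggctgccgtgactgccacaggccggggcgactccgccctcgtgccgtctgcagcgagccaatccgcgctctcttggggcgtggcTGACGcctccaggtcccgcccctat
Nr4a1, chr15:101266603-101266820, plus strand: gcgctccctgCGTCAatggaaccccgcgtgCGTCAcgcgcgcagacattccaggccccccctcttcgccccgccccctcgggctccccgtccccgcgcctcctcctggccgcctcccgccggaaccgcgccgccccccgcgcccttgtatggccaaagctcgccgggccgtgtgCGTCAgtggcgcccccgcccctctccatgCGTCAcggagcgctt

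Among factors of the adipogenic cascade, Cebpd had a scaled signal of 23853 at day 0 and 174659 at day 2 and was 7.32-fold higher, and Cebpb had 27912 and 144238 and was 5.17-fold higher. Pparg, with 3188 and 2955, and Cebpa, with 543 and 689.9, were within 2-fold. Klf5, a Krüppel-like factor that precedes Pparg in the cascade, was 2.58-fold higher, and Klf4, which precedes Cebpb, 2.41-fold lower. Ppargc1a, a coactivator of mitochondrial genes, had 699 and 3686 and was 5.27-fold higher. In all, 7 of 20 pro-adipogenic factors were higher and 2 lower, and the sign of the list's median changed with the setting. Of 19 genes that hold preadipocytes back, 3 were higher and 1 lower. Both lists stand against 6.24% of all genes higher and 10.3% lower. Of the higher genes that hold preadipocytes back, Nr2f2 was only 2.00-fold higher and came under 2-fold after quantile normalization, cyclic loess and with normexp. The Notch and BMP target Hes1, with 231 and 1126, was 4.88-fold higher and Gata3 3.20-fold lower. Dlk1, the preadipocyte factor that must be lost for differentiation, remained among the brightest, at 242432 and 180308.

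Of 29 mature adipocyte genes listed, 16 were over the signal limit on at least 1 array, and these gave 5 higher and 3 lower. Since a gene that is dark on both arrays is not compared, this count is not one over all listed genes. Fabp4, the fat cell's fatty acid carrier, had 3062 at day 0 and 38499 at day 2 and was 12.6-fold higher. Its relative Fabp5 had 112386 and 17764 and was 6.33-fold lower. Plin4, whose product coats lipid droplets, had 3208 and 302 and was 10.6-fold lower, and the amine oxidase gene Aoc3 6.53-fold lower. Scd1, which desaturates fatty acids, was 3.01-fold higher and Dgat1, which makes triglyceride, 2.89-fold higher. Adipoq, Plin1 and Cd36, markers of the finished fat cell, were under the limit on both arrays, with scaled signals of 18.9 and 26.5, 37.0 and 62.5, and 12.7 and 31.4.

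For fatty acid and triglyceride synthesis 5 of 23 genes were higher and 1 lower. The activating enzyme gene Acsl4 had 10887 and 31755 and was 2.92-fold higher, Lpin1, a phosphatidate phosphatase gene, was 2.72-fold higher, and the desaturase gene Fads2 was 2.80-fold lower. Fatty acid synthase (Fasn) was dim on both days, at 398 and 401. For fatty acid oxidation 3 of 18 were higher and none of the 18 lower. They were the acyl-CoA dehydrogenase genes Acadm (2.14-fold) and Acadvl (2.03-fold), which came under 2-fold after quantile normalization and cyclic loess (Acadvl also with normexp and without detrending), and Pdk4, which keeps pyruvate out of the mitochondrion (2.19-fold). Respiratory chain genes were all 27 within 2-fold. In glycolysis 2 of 21 were higher, among them Pfkfb3, which makes the activator of phosphofructokinase, with 894 and 3705 and 4.15-fold higher. The other, Hk2, was 2.09-fold higher, and under 2-fold after quantile normalization and cyclic loess. Counts of the lists in this paragraph stand against 6.24% of all genes higher and 10.3% lower.

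Sterol and amino acid synthesis were on the lower side. Cholesterol synthesis had 8 of 24 genes lower and 1 higher, with a median log2 ratio of -0.77, against the 10.3% of all genes that were lower. Farnesyl diphosphate synthase (Fdps) had 73410.4 at day 0 and 22337 at day 2 and was 3.29-fold lower. The other lower genes lay between 2.08-fold and 2.21-fold, near the size that makes a call, and with scaling to the median 4 of 24 were lower, Idi1 being among those that came under 2-fold. Insig1 came under 2-fold with normexp. The higher gene was Hsd17b7, at 2.66-fold. Amino acid and one-carbon metabolism had 9 of 20 genes lower and 1 higher, with a median of -0.79. Phgdh and Psat1 catalyse the first steps of serine synthesis. Phgdh had 40534 and 7167 and was 5.66-fold lower, and Psat1 was 3.18-fold lower. Shmt1, which passes the carbon of serine to folate, was 7.53-fold lower (3.60-fold as the median of its probes). Odc1, the first enzyme of polyamine synthesis, was 3.72-fold lower, and the cationic amino acid carrier gene Slc7a1 3.71-fold lower. The higher member was Glul.

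Among 17 hypoxia-responsive genes 7 were higher and 2 lower, with a median of 0.73. Vegfa, the main growth factor of blood vessels, had 8228 at day 0 and 58090.2 at day 2 and was 7.06-fold higher. The gene of the oxygen-sensing factor HIF2α, Epas1, was 3.05-fold higher at its brightest probe but 1.67-fold as the median of its probes. The collagen-modifying enzyme gene Plod2 was 3.12-fold higher. Car9, a carbonic anhydrase gene and HIF target, went the other way, with 356 and 105 and 3.38-fold lower.

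Genes of cell division were mostly lower. In the list of 35 G2 and mitotic genes, 32 were lower by 2-fold or more and none of the 35 higher, with a median log2 ratio of -1.70, and of 38 S-phase genes 23 were lower and none of the 38 higher, with a median of -1.13. Both shares stand against 10.3% of all genes. In RNA of whole cultures, fewer dividing cells and less of an RNA per cell cannot be told apart. Anln, a scaffold of the contractile ring, had a scaled signal of 20096 at day 0 and 3301 at day 2 and was 6.09-fold lower. The kinesin gene Kif23, also of cytokinesis, had 3902 and 651 and was 5.99-fold lower. Nusap1, of the spindle, was 5.77-fold lower and Foxm1, the transcription factor that drives mitotic genes, 5.57-fold. Mki67, which encodes the proliferation marker Ki-67, had 12923 and 2728 and was 4.74-fold lower. The G2 and mitosis genes within 2-fold were Bub3, Cks2 and Top2a, 3 of 35. Top2a, which untangles replicated DNA, had 3064 and 2389.

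In S phase, thymidine kinase (Tk1) had 10020.5 at day 0 and 1526 at day 2 and was 6.57-fold lower. Uhrf1, which keeps DNA methylation through replication, was 5.49-fold lower, the polymerase subunit gene Pole2 4.31-fold, the helicase gene Mcm5 4.26-fold and the helicase gene Mcm3 3.87-fold. The sliding clamp gene Pcna differed by less than 2-fold, with 39042 and 33715. Genes that set the entry to S phase were mixed, with 2 of 23 higher and 6 lower, or 3 of 20 lower with the limit on both arrays. Cyclin D1 (Ccnd1) had 37000.2 and 4539 and was 8.15-fold lower. Cyclin D3 (Ccnd3), which is known to accompany fat cell differentiation, had 25248 and 60662 and was 2.40-fold higher, and cyclin D2 (Ccnd2) was within 2-fold. The atypical repressors E2f8 and E2f7 were 5.94-fold and 4.95-fold lower and the kinase gene Cdk6 3.04-fold lower. The inhibitors Cdkn1a and Cdkn1b were within 2-fold, with 3737 and 3913 for Cdkn1a. Myc was 2.09-fold higher, and under 2-fold after quantile normalization and cyclic loess.

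Control cells, whose day 0 array lay on another slide, had at the same probes 8 of the 35 G2 and mitosis genes lower and 1 higher, and 2 of the 38 S-phase genes lower and 1 higher. Their medians were -0.78 and -0.48, and 8.6% of all compared genes were lower in control cells. Top2a was 3.19-fold and Pcna 2.13-fold higher in control cells. The difference between both kinds of cell was not tested, and the slide cannot be told apart from the day in control cells.

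**Figure D3:**
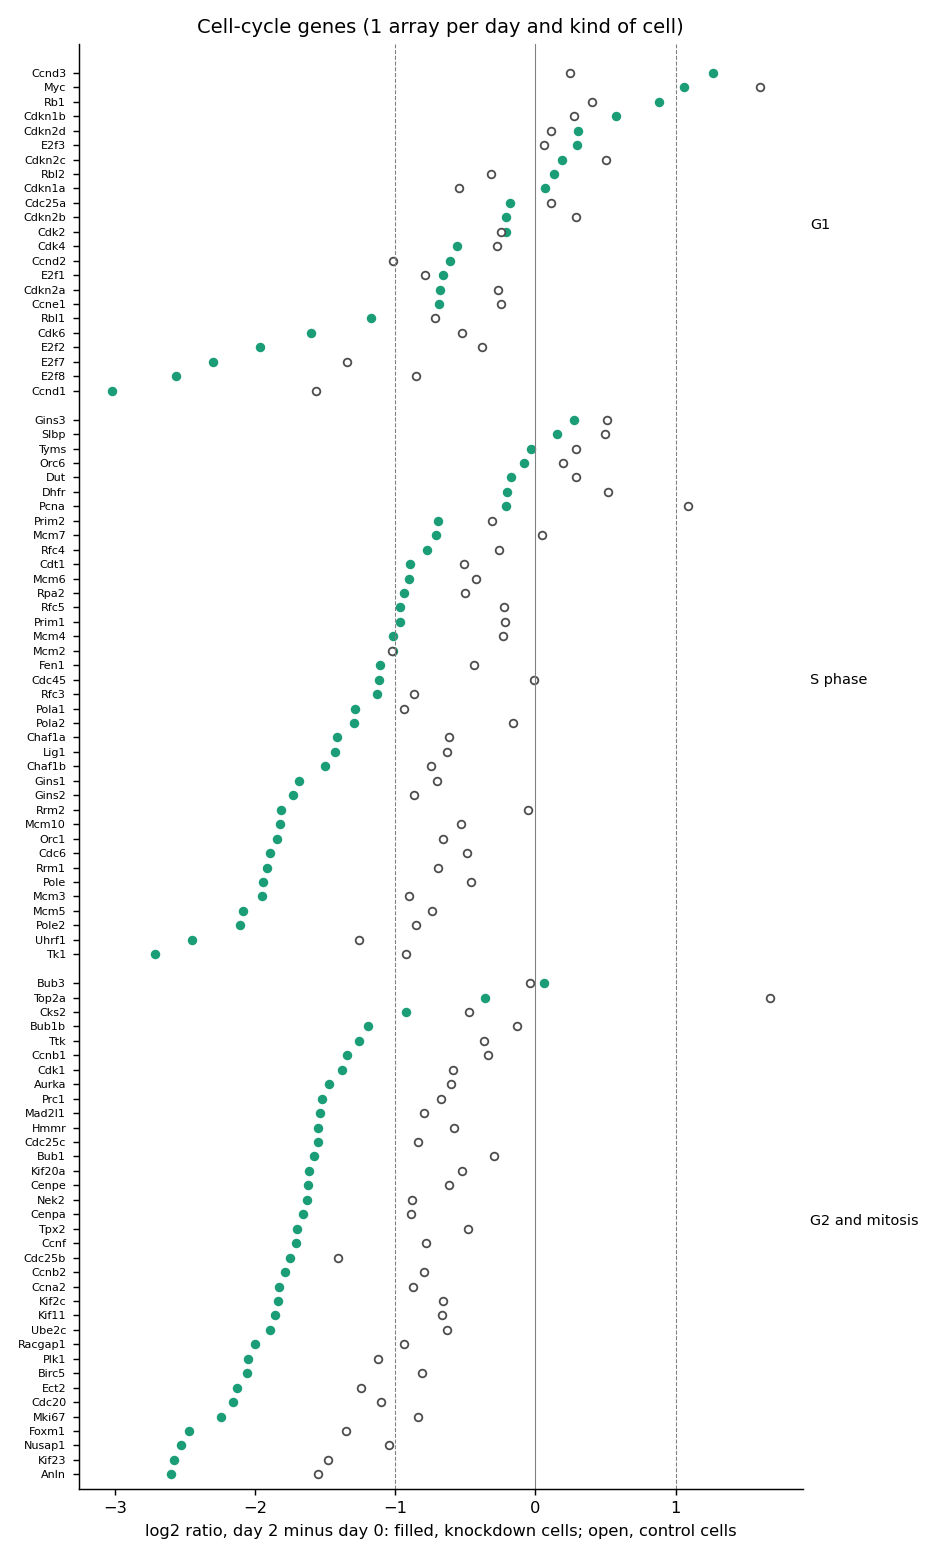
log2 ratio of day 2 to day 0 for the cell-cycle genes compared, in knockdown cells (filled) and at the same probes in control cells (open), 1 array per day and kind of cell; dashed lines mark 2-fold. In knockdown cells 32 of 35 genes of G2 and mitosis and 23 of 38 S-phase genes lie at or left of the lower 2-fold line, and in control cells 8 and 2 do.

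Promoters of the dividing-cell genes shared sequence features that were not used to list them. The cell cycle homology motif TTTGAA was in 14 of 33 promoters of the G2 and mitosis genes (42.4%), against 11.0% of promoters of compared genes and 16.0% of all. The CCAAT box, letters CCAAT, was in 28 of 33 (84.8%), against 35.6% and 33.8%, and in 22 of 37 S-phase promoters (59.5%). The E2F motif TTTGGCGC was in 3 of 37 S-phase promoters (8.11%), against 0.774% of compared genes and 0.417% of all. Matches of TTTGAA and CCAAT can share at most 1 base. Shown are promoters of the mitotic kinase gene Cdk1, with 10636 and 4091 and 2.60-fold lower, of cyclin B2 (Ccnb2), with 11187 and 3231 and 3.46-fold lower, and of Mcm5, with 13231 and 3108. Capitals mark TTTGAA and CCAAT on either strand, and in Mcm5 the E2F motif.
Cdk1, chr10:69352913-69353130, minus strand: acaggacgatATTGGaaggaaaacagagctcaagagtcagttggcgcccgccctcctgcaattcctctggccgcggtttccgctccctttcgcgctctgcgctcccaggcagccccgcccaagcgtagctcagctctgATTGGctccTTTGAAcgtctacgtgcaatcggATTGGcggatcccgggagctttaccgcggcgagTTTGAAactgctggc
Ccnb2, chr9:70421561-70421731, minus strand: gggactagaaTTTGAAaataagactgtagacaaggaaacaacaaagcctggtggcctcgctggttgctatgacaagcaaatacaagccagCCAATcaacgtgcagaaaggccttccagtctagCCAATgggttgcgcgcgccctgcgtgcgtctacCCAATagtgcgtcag
Mcm5, chr8:75109330-75109397, plus strand: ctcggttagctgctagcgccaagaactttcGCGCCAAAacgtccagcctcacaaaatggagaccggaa

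Genes of ribosome production mostly lay within 2-fold. Of 24 genes of Myc function and ribosome biogenesis 1 was higher (Myc) and 1 lower (Mxd4, a Myc antagonist, 2.12-fold, or 1.83-fold as the median of its probes), and none of 30 cytosolic ribosomal protein genes was past 2-fold. The ribosomal median was 0.48 and came to 0.02 after quantile normalization. Of 19 p53 targets 1 was higher and 1 lower, where 6.24% and 10.3% of all genes were. The higher one was the stress sensor gene Gadd45g, at 2.37-fold. The lower one was Bbc3, which encodes the cell death protein PUMA, at 4.90-fold, with 3948 and 805.

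Interferon-stimulated genes formed the group with the lowest median. Of 31 compared, 28 were at least 2-fold lower and none of the 31 higher, with a median log2 ratio of -2.74. Ifit3, of the antiviral IFIT family, had a scaled signal of 9206 at day 0 and 29.7 at day 2 and was 309.8-fold lower. Its near-identical copy Ifit3b had 3055 and 28.3 and was 108-fold lower, and which of both each probe reads is uncertain. Oas1a, a sensor of double-stranded RNA, was 56.8-fold lower. As their day 2 signals were close to background, these folds depend on the background correction: with normexp they were 102-fold, 37.8-fold and 19.0-fold, and as the median of its probes Ifit3b was 70.0-fold and Oas1a 20.7-fold lower. Brighter members carried the same direction, such as Isg15, a ubiquitin-like protein gene, with 29766 and 3484 and 8.54-fold lower. Rtp4 was 20.7-fold lower, Oasl2 19.2-fold and Ifit1 19.0-fold. The members within 2-fold were Stat2, Ifi35 and Trim25, 3 of 31. In control cells 29 of the same 31 genes were lower. Antigen presentation had 5 of 15 genes lower (2 of 12 with the limit on both arrays) and none of the 15 higher, with the regulator gene Nlrc5 4.82-fold lower (3.13-fold with normexp) and the class I heavy chain gene H2-K1 within 2-fold.

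The interferon-stimulated response element in the form of 2 GAAA runs separated by any 2 bases was in 11 of 27 promoters of the list (40.7%), against 2.64% of promoters of compared genes and 2.98% of all. Stretches of Isg15 and Ifit1 are shown because both genes were among the lower ones and carry more than 1 match each.
Isg15, chr4:156200845-156200926, minus strand: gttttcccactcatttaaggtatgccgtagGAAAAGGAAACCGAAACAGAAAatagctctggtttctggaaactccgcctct
Ifit1, chr19:34640755-34640843, plus strand: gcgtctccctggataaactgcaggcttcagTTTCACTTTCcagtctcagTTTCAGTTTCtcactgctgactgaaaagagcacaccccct

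Of 14 chemokine genes 7 were lower and 4 higher, with a median of -1.15, which came to -0.45 with the limit of 400 required on both arrays. Ccl2 had 71333 at day 0 and 8537 at day 2 and was 8.36-fold lower, Ccl9 had 11141 and 1240.0 and was 8.98-fold lower, and Cxcl10, an interferon target that attracts T cells, had 8996 and 400.1 and was 22.5-fold lower. Ccl11, the eosinophil attractant, had 318 and 22.7 and a log2 ratio of -3.81, and was 4.40-fold lower with normexp. Cxcl13, which attracts B cells, was among the higher ones, with 18.4 and 1585 and 86.1-fold (29.3-fold with normexp). Ccl17 was 3.66-fold higher.

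In a list of cytokines, growth factors and genes of STAT3 signalling, 11 of 18 genes were higher and 2 lower, with a median of 1.30. Among ligands of the interleukin 6 family, Il6 had 131 at day 0 and 1217 at day 2 and was 9.30-fold higher, Il11 had 523 and 3529 and was 6.75-fold higher, and Clcf1 had 929.6 and 4224 and was 4.54-fold higher. Il33, an alarm cytokine of the interleukin 1 family, had 527 and 6221 and was 11.8-fold higher. Among receptors, Osmr, which pairs with gp130 to bind oncostatin M, had 13358 and 56062 and was 4.20-fold higher. The feedback inhibitor Socs3, a STAT3 target, was 3.16-fold higher and Stat3 itself 2.39-fold. The lower genes were Il34, a ligand of the CSF1 receptor, at 3.71-fold, and Ctf1, of the interleukin 6 family, at 2.95-fold. The family members Lif and Osm were under the signal limit. At the same probes in control cells, 3 of the 18 were higher and 1 lower, with a median of 0.52, where 8.6% of all compared genes were higher. Il6 was 1.30-fold higher there and Il33 1.28-fold lower.

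Acute-phase genes were higher in 8 of 12 cases and lower in 1, with a median of 3.21. With the limit required on both arrays 6 were left, 3 of them higher, with a median of 0.82. Orm3, of the orosomucoid carriers, had 118 at day 0 and 10338 at day 2 and was 87.2-fold higher. Orm1 and Orm2 were 40.9-fold (19.1-fold with normexp) and 40.4-fold higher, the protease inhibitor gene Serpina3n 31.3-fold and haptoglobin (Hp), which binds free haemoglobin, 12.4-fold. The metalloreductase gene Steap4 was 15.7-fold lower, with 527 and 33.7 (6.43-fold with normexp). In the list of eosinophil ribonucleases, which also holds Rnase4, 6 of 7 genes were higher, or 1 of 2 with the limit on both arrays. That 1 was Rnase4, with 6887 and 26271 and 3.81-fold higher. Ear1, Ear2, Ear6, Ear10 and Rnase2a were under the limit at day 0. Ear2 had 56.2 and 5211 and was 92.7-fold higher, and Ear1 had 18.5 and 1914 and was 104-fold higher, or 57.7-fold and 34.8-fold with normexp. Orm genes are close copies of one another, and so, as a separate family, are Ear genes and Rnase2a. Which member of its family a probe reads is therefore uncertain. At the same probes in control cells Ear2 and Ear1 were 1479.9-fold and at least 1309-fold higher, with a day 0 array of another slide.

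Complement genes split, with 2 of 10 higher and 2 lower. C4b was 5.44-fold higher, whereas the proteases that start the classical pathway, C1s1 and C1ra, were 4.87-fold and 4.60-fold lower. In the prostaglandin pathway 4 of 13 genes were higher and 4 lower. The receptor gene Ptgfr was 6.15-fold higher, with 4359.5 and 26827, and Akr1b3, which can make prostaglandin F, 4.79-fold higher. The receptor gene Ptger4 was 3.25-fold lower. Among NF-κB feedback genes 4 of 16 were higher and 2 lower. Nfkbiz was 4.37-fold higher and the adaptor gene Traf1 4.26-fold lower.

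**Figure D4:**
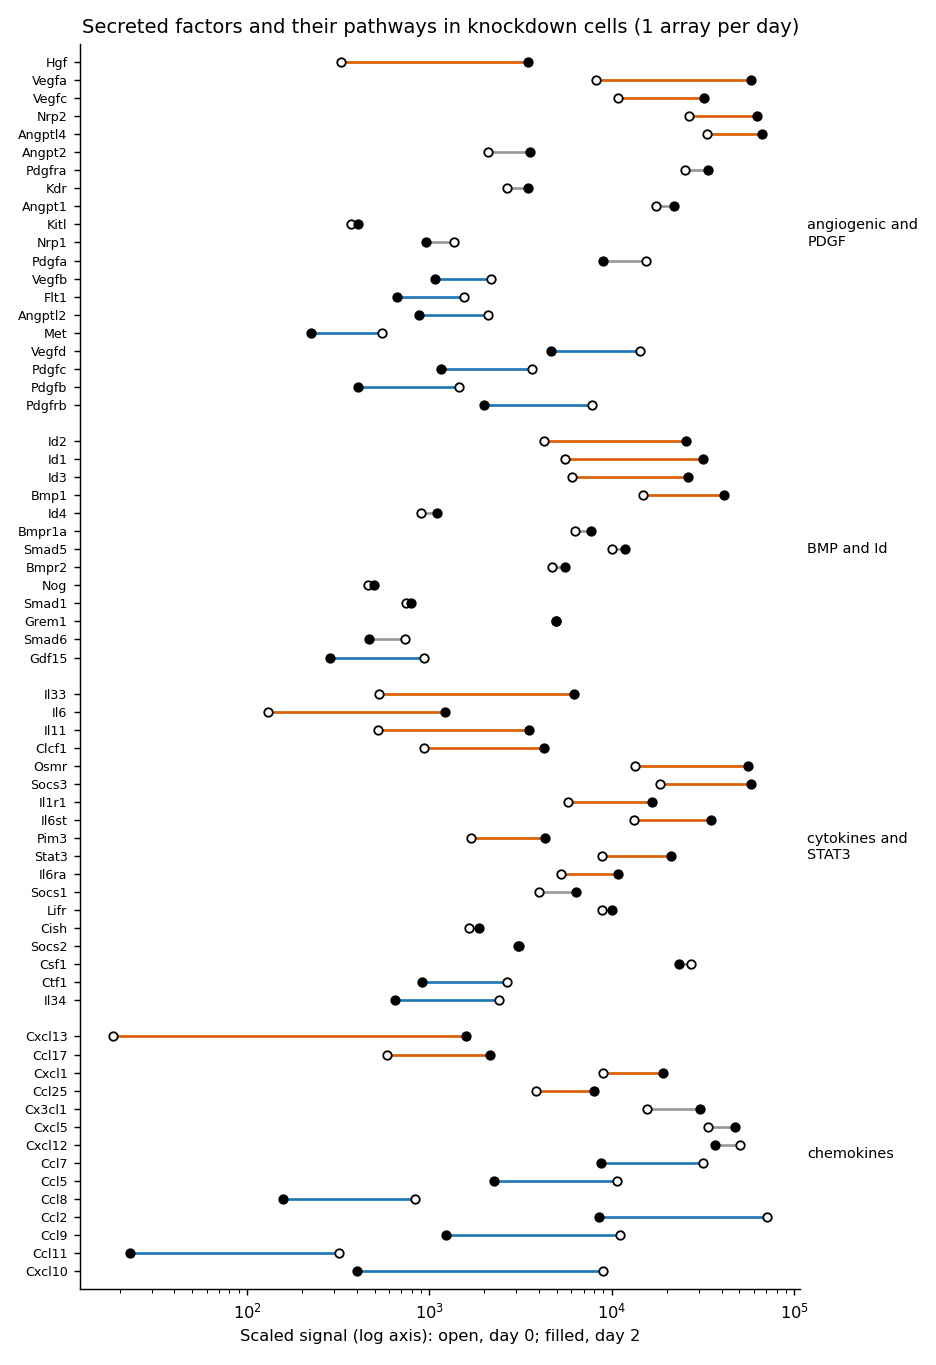
Scaled signal (log axis) at day 0 (open) and day 2 (filled) of chemokine, cytokine and STAT3, BMP and Id, and angiogenic and PDGF genes in knockdown cells, 1 array per day; orange lines are at least 2-fold higher, blue lines at least 2-fold lower, grey lines within 2-fold. Of the cytokine and STAT3 genes 11 of 18 are orange, of the chemokines 7 of 14 are blue, and the angiogenic and PDGF genes have 5 orange and 8 blue of 20.

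Matrix proteases and inhibitors were on the lower side, and other matrix genes went both ways. Proteases and some small proteoglycans were among the largest differences. Of 22 matrix proteases and inhibitors 9 were lower and 1 higher, with a median of -0.86, and with the limit on both arrays 5 of 16. The serine protease gene Htra1 had 5367 at day 0 and 110.4 at day 2 and was 48.6-fold lower (30.9-fold with normexp). The gelatinase gene Mmp9 had 4654 and 229.8 and was 20.3-fold lower, Mmp23 was 6.38-fold lower and the urokinase receptor gene Plaur 5.87-fold. Adamts1, a protease that cuts versican, was the higher one, at 2.72-fold. Of 29 matrix glycoproteins 10 were lower and 5 higher, against 10.3% and 6.24% of all genes. Fibromodulin (Fmod) had 4378 and 147 and was 29.7-fold lower, osteoglycin (Ogn) had 81068 and 5527 and was 14.7-fold lower, and thrombospondin 1 (Thbs1) was 13.6-fold lower. Versican (Vcan), the large hyaluronan-binding proteoglycan, had 13280.1 and 84773 and was 6.38-fold higher. Fibronectin (Fn1) had 76409 and 186428 and was 2.44-fold higher, and under 2-fold after quantile normalization and cyclic loess.

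Collagens went both ways, with 3 of 16 higher and 3 lower, where 6.24% and 10.3% of all genes were. Col8a1 had 1620.2 and 41.0 and was 39.5-fold lower (16.7-fold with normexp), and the fibril collagen gene Col11a1 was 5.20-fold lower. Basement membrane Col4a1 was 2.78-fold higher and Col4a5, of the same collagen type, lower, with 12262 and 3069. The microfibril collagen gene Col6a1 was 2.51-fold higher, and under 2-fold after quantile normalization. Among integrins and laminins 2 of 18 were higher and 4 lower, against the same 6.24% and 10.3%. Itgbl1, an integrin-like protein gene, had 2100.0 and 15.1, the latter not well above background, and was at least 125-fold lower (28.2-fold with normexp). Itga11, a collagen receptor subunit, was 9.09-fold lower (5.70-fold with normexp) and Itga5, of the fibronectin receptor, 2.83-fold higher.

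Contractile genes were lower in 6 of 13 cases, against 10.3% of all genes, and higher in none of the 13, with a median of -0.81. At the same probes in control cells 8 of the 13 were lower, with a median of -1.35, where 8.6% of all compared genes were lower. The difference between both kinds of cell was not tested. Myl9, a regulatory light chain of myosin, had a scaled signal of 20603 at day 0 and 246 at day 2 and was 83.8-fold lower. Acta2, the smooth muscle actin gene of activated fibroblasts, had 30208 and 1059 and was 28.5-fold lower, and Acta1, also a skeletal muscle marker, had 741 and 39.2 and was 18.9-fold lower (7.73-fold with normexp). Fhl2 and Tpm1 were 5.39-fold and 4.62-fold lower, while Tagln (1255 and 882) and the non-muscle myosin gene Myh9 were within 2-fold. Targets of SRF and YAP, which read tension of the actin skeleton, had 7 of 24 members lower and 1 higher, or 3 of 20 lower with the limit on both arrays. Ankrd1 had 8375 and 316 and was 26.5-fold lower, Ccn2 was 7.62-fold (4.60-fold with normexp) and Ccn4 5.02-fold lower. Ccn3 was at least 40.9-fold lower (9.71-fold with normexp), since its day 2 spot was not well above background. The higher member was Ccn5, a CCN protein without the C-terminal domain, with 3345 and 13160.3. The factors themselves, Srf and Yap1, were within 2-fold.

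The CArG box to which SRF binds was in 5 of 14 promoters of the contractile list (35.7%), against 1.24% of promoters of compared genes and 1.47% of all. Stretches of Myl9 and Acta1 are shown, as both were among the lower genes.
Myl9, chr2:156775268-156775347, plus strand: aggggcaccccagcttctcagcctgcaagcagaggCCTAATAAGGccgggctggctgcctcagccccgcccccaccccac
Acta1, chr8:123894804-123894883, minus strand: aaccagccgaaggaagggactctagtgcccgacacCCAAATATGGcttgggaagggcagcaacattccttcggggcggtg

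Ligands and receptors of growth factor pathways differed gene by gene. In the TGFβ and activin pathway 7 of 22 were higher and 4 lower. The coreceptor gene Tgfbr3 had 16532 and 94759 and was 5.73-fold higher, and the activin receptor gene Acvr1b was 3.04-fold higher. The ligand genes Inhbb and Tgfb3 were 3.04-fold and 3.00-fold lower. In the list of BMP and Id genes 4 of 13 were higher and 1 lower. Both lists stand against 6.24% of all genes higher and 10.3% lower. The higher ones were Id1, Id2, Id3 and Bmp1, and Bmp1 was 2.76-fold higher at its brightest probe but 1.93-fold as the median of its probes. Id1, Id2 and Id3 encode inhibitors of bHLH factors. Id1 had 5564 and 31654, Id2 4223 and 25592 and Id3 6028 and 26244, which made them 5.69-fold, 6.06-fold and 4.35-fold higher. Gdf15, a stress-induced ligand, was 3.30-fold lower.

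Counts of the Wnt, Notch, IGF and FGF lists stand against 6.24% of all genes higher and 10.3% lower. In the Wnt list 3 of 15 genes were higher and 2 lower. Wnt4 had 2539 and 20142 and was 7.93-fold higher, and Wnt6, an inhibitor of adipogenesis, 3.36-fold lower. Among 8 Notch genes 2 were higher and 1 lower. The receptor gene Notch1 was 3.76-fold lower, while the target genes Hes1 and Hey1 were 4.88-fold and 2.74-fold higher. In the IGF axis 3 of 11 genes were higher and 3 lower. Igf1 had 9336 at day 0 and 665 at day 2 and a log2 ratio of -3.81. The binding protein gene Igfbp4 was 4.34-fold higher, as was Pappa, which cuts IGFBP4, at 5.47-fold, and Igfbp6 was 4.51-fold lower. In the FGF list 1 of 14 was higher and 4 lower. Fgf10 was 3.93-fold higher, and Etv4, a target of FGF signalling, had 7893 and 580.3 and was 13.6-fold lower.

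Of 20 angiogenic and PDGF genes 5 were higher (3 after cyclic loess) and 8 lower. Hgf, the ligand of MET, had 326 and 3464 and was 10.6-fold higher, and Vegfc was 2.97-fold higher. Pdgfrb had 7790.5 and 1983 and was 3.93-fold lower, its ligand gene Pdgfb was 3.61-fold lower, and Pdgfra was within 2-fold. In the EGF list 3 of 14 were higher and 3 lower. Nrg1 and Hbegf were 5.82-fold and 5.55-fold lower. The phosphatase gene Dusp2, which inactivates ERK, had 394 and 10814 and was 27.4-fold higher. Guidance cues had 6 of 19 lower and 4 higher. Sema7a had 4567 and 128 and was 35.6-fold lower, Sema3b was 15.7-fold lower, and Sema3c was 3.74-fold higher.

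Among transcription factors, AP-1 and Egr genes had 5 of 15 higher and 1 lower. Junb had 442 and 2445 and was 5.53-fold higher, Fosl2 was 4.72-fold and Fos 3.49-fold higher. The clock genes had 5 of 15 higher and none of the 15 lower. Per1 and Per2, the repressors of the clock that glucocorticoids induce, were 5.85-fold and 4.45-fold higher, and Clock 2.53-fold. In the mesenchymal list 6 of 20 were higher and 2 lower, and 3 were higher after quantile normalization or cyclic loess. Snai1 had 7311 and 42706 and was 5.84-fold higher, and Osr2 had 1413 and 150.3 and was 9.40-fold lower. Of 14 Hox genes 2 were higher, Hoxa5 at 2.74-fold and Hoxd8 at 2.17-fold, the latter under 2-fold after cyclic loess. Of 11 Krüppel-like factor genes 2 were higher and 1 lower, and of 7 hedgehog genes 1 was higher and 1 lower. Those hedgehog genes, Gli2 higher and Gli1 lower, both came under 2-fold with normexp. Counts of the lists in this paragraph stand against 6.24% of all genes higher and 10.3% lower.

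Of 29 lysosomal genes 2 were higher and 3 lower, near the background of 6.24% and 10.3%. Among them, the mannosidase gene Man2b1 was 2.76-fold higher and cathepsin K (Ctsk) 2.52-fold lower. Of 28 autophagy genes 2 were higher, near the background, and 1 lower, below it. Atg12, of the conjugation system that lipidates LC3, had 10186 and 37631 and was 3.69-fold higher. The cargo receptor gene Optn was 2.36-fold lower, but under 2-fold with normexp. Hspa8, the chaperone that delivers proteins to LAMP2A, was within 2-fold, with 140799 and 155149. All 24 proteasome genes were within 2-fold.

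Stress pathways held genes that went both ways. In the unfolded protein list 1 of 25 was higher and 3 lower, near the background of 6.24% and 10.3%. The lower ones were Chac1, which degrades glutathione (5.54-fold, with 8189 and 1478), Trib3 and Herpud1 (3.12-fold), while the chaperone gene Hspa5 was within 2-fold. In the heat shock list 3 of 15 were higher and 2 lower. The small chaperone gene Cryab had 12284 and 729 and was 16.9-fold lower, and Hspb2 was 7.15-fold lower. Dnajb4 was 5.38-fold higher and Bag3 3.50-fold. Of 19 NRF2 and glutathione genes 4 were higher and 6 lower. The subunits of the first enzyme of glutathione synthesis took opposite sides: the catalytic subunit gene Gclc had 1389 at day 0 and 13135 at day 2 and was 9.46-fold higher, and the modifier gene Gclm had 839.8 and 327 and was 2.56-fold lower. Haem oxygenase (Hmox1) was 4.09-fold lower. In retinoid handling, the alcohol dehydrogenase genes Adh7 and Adh1 were 8.93-fold and 12.5-fold lower (Adh1 6.46-fold with normexp). The list had 2 of 10 genes higher and 2 lower.

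**Figure D5:**
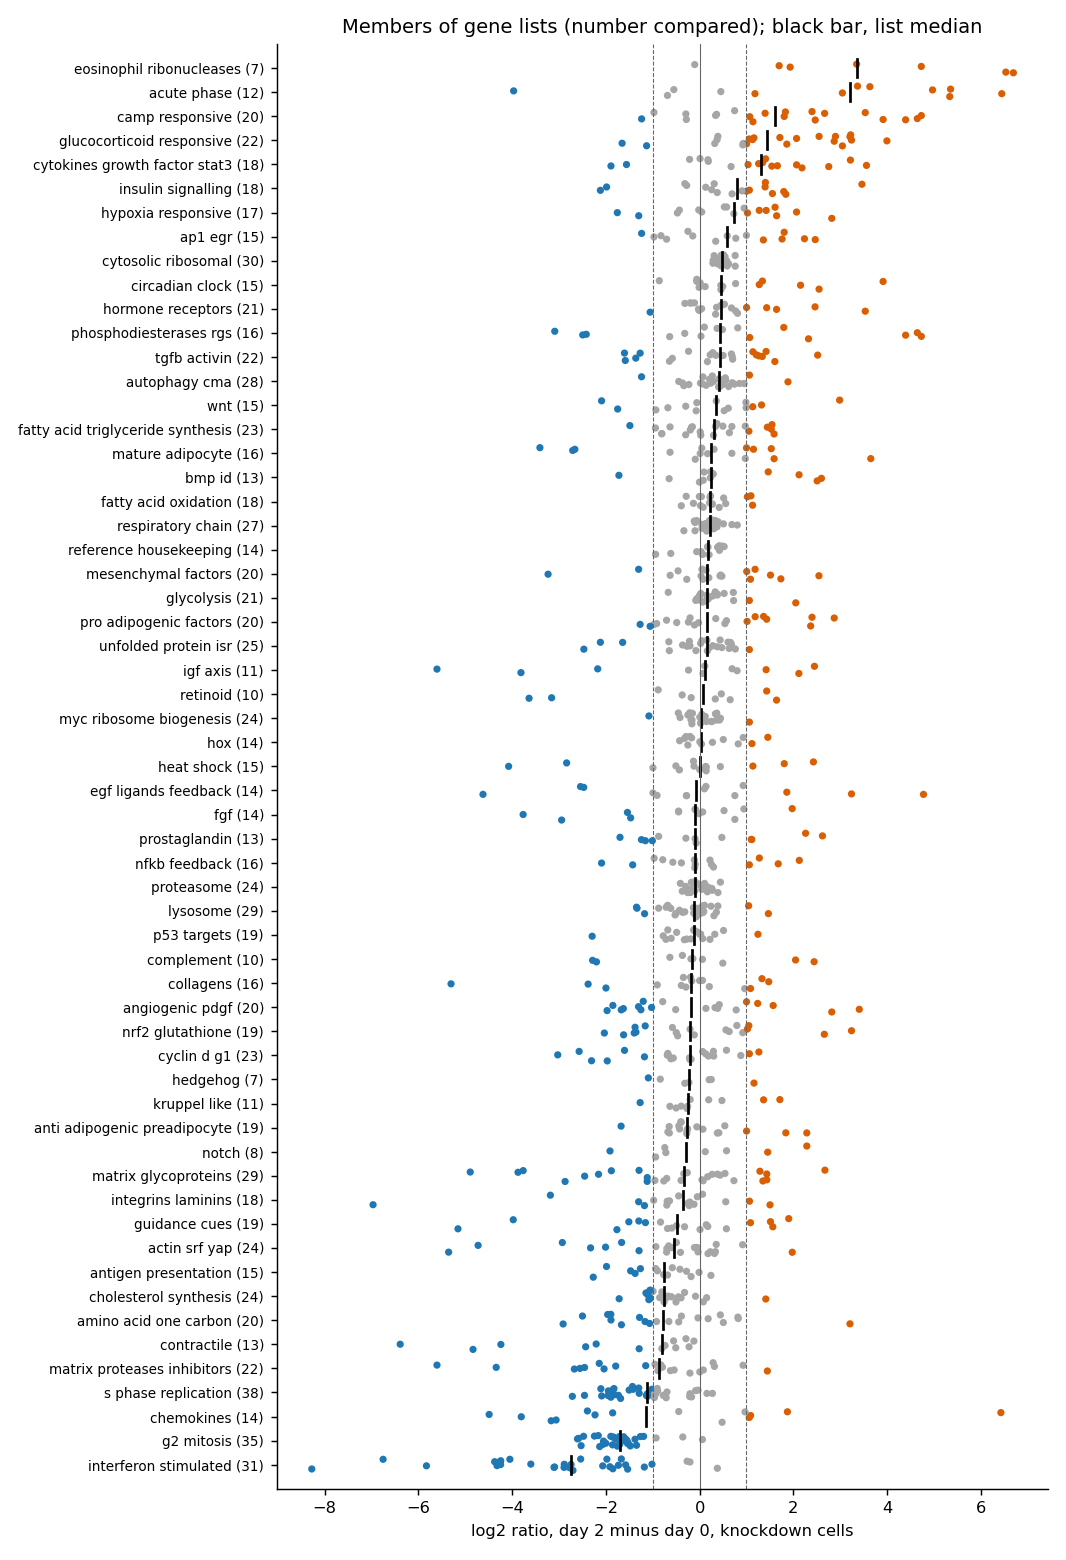
log2 ratio of day 2 to day 0 in knockdown cells for each compared member (points) of the 59 lists that are not markers of cell types, 1 array per day; black bars mark list medians, orange points are at least 2-fold higher and blue points at least 2-fold lower. Medians run from -2.74 for interferon-stimulated genes to 3.35 for eosinophil ribonucleases. With the limit of 400 on both arrays, which leaves 15 and 2 genes, these medians are -1.91 and 0.91. Those 2 ribonuclease genes include Rnase4 and not Ear1, Ear2, Ear6, Ear10 or Rnase2a.

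Some of the largest differences were in genes outside the lists. Fam110c, a microtubule-associated protein gene, had 31.9 at day 0 and 3457 at day 2 and was 108-fold higher (30.9-fold as the median of its probes, 53.7-fold with normexp). Retnla, a resistin-like secreted protein gene, had 14.5 and 652 and was 45.1-fold higher, or 11.9-fold with normexp. The whey acidic protein family gene Wfdc12 had 482 and 13252 and was 27.5-fold higher. Prg4, which encodes the joint lubricant lubricin, was not well above background at day 0 and was at least 148-fold higher, with 7.45 and 1404, or 28.5-fold with normexp. Obox1 was at least 44.0-fold higher at its brightest kept probe (8.55-fold with normexp), but its log2 ratio was -0.27 where the brightest of all its probes was read. On the lower side, Apod, a lipid carrier gene, had 17670.1 and 282 and was 62.6-fold lower. Ngef, a guanine exchange factor gene, had 4899 and 45.6 and a log2 ratio of -6.75, and the formin gene Fhod3 had 3861 and 65.8 and was 58.7-fold lower. With normexp both were 48.8-fold and 30.4-fold lower. Gpr176 and Padi2, not well above background on the day 2 array, were lower by at least 76.4-fold and 69.7-fold, or 18.3-fold and 16.7-fold with normexp. A further 292 kept probes without a gene name were higher and 352 lower.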

How the data were processed

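RNA of 3T3L1 cells was hybridised to 1-colour Agilent mouse arrays of design 028005 with Cy3, 1 array per group, and groups were taken from the labels. Per the file headers, the authors read each array with Agilent Feature Extraction 10.7.3.1. The deposited processed signals are intensity values, background-subtracted and not normalised between arrays. Per the file headers, a multiplicative detrending was applied to the knockdown day 2 array and not to the knockdown day 0 array. The control day 0 array lay on another slide than the other arrays.

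Of 59305 non-control spots, those marked as non-uniform or population outliers were left out (178 on the knockdown day 0 array and 156 on the day 2 array). Of the spots, 88.6% were well above background at day 0 and 78.7% at day 2, and 0 kept probes were saturated. The 75th percentiles of processed signal were 1665 and 1103. Levels are log2 of the processed signal minus that percentile, repeat spots were averaged, and 27656 probes were named by RefSeq accession through a table of GRCm38.p6. The brightest kept probe stands for a gene. Where 1 side was not well above background, that side took its own level or, if higher, the level of the dimmest probe of that array that was well above background, and the fold is written as at least N-fold. For 21 genes the difference is such a bound. It is a lower bound for the processed signal only, and another background correction can give a smaller fold.

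Named genes were the 15 largest measured differences in each direction whose other kept probes went the same way, the 5 largest bounds in each direction, the 6 members of each list with the largest absolute log2 ratio, and a fixed set of regulators and markers. Not every one is printed, and some are not reported here. Named outside that rule, after their values were seen, were Adamts1, Agt, Bub3, Ccl17, Ccnb2, Cks2, Col1a2, Ctf1, Gclm, H2-K1, Hif3a, Hspa5, Hspa8, Ifi35, Isg15, Lep, Lif, Myh9, Osm, Pde1a, Pdgfra, Psat1, Sgk1, Socs3, Srf, Stat2, Stat3, Tgm2, Trim25, Vegfc, Vim and Yap1, the genes beside the signal limit and the markers under it. The members and the 66 gene lists were chosen with earlier results of these data known, and 256 listed genes were under the signal limit or could not be read. No test was run, since each group had 1 array. The calling was also run on simulated data of 11635 genes with the spot error of the arrays, which covers error within an array only. There, 3-fold higher and 4-fold lower genes were made only among genes bright at day 0. Its outcome therefore says nothing about dim genes, or about differences of background or detrending between the arrays. The software was Python 3.11.15 (numpy 2.4.6, pandas 2.3.3, matplotlib 3.10.9) and limma 3.58.1 under R 4.3.3, with normexp at offset 50, quantile normalization and cyclic loess of 3 iterations.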

Additional observations from a re-analysis of the deposited data

Results flagged for a closer look

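Among the named genes, Ccn5 and Sema3c went at least 2-fold in opposite directions in knockdown and control cells. Ccn5, a matricellular protein gene, had scaled signals of 3345 at day 0 and 13160 at day 2 in knockdown cells, a log2 ratio of 1.98 (3.93-fold higher). In control cells it had 7580 and 3774, a log2 ratio of -1.01 (2.01-fold lower). Sema3c, a secreted semaphorin gene, had 1898 and 7092 in knockdown cells, a log2 ratio of 1.90 (3.74-fold higher), and 13885 and 6815 in control cells, a log2 ratio of -1.03 (2.04-fold lower). The control values lie close to the 2-fold size. The difference was not tested, as each group had 1 array, and the control day 0 array lay on another slide.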

How the results depend on the processing

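No paired analysis was possible because each group had 1 array. Over the settings tried at the 2-fold size, the count of higher genes ran from 572 after cyclic loess to 965 with no filter on signal. Lower genes numbered 686 with a signal over 400 required on both arrays and 958 to 1714 in the other settings. At a 1.5-fold size 1881 genes were higher and 2020 lower, and at a 4-fold size 172 and 403. At 4-fold, 9 glucocorticoid-responsive genes and 8 cAMP-responsive genes were higher, and 10 genes of G2 and mitosis and 4 of S phase lower. With over 400 on both arrays, 12 of 15 interferon-stimulated genes compared were lower, since members that are dim at day 2 drop out. Of 297 called named genes, those that came under 2-fold numbered 16 with normexp, 19 after cyclic loess and 14 after quantile normalization. Obox1 was the 1 reversed gene, with a log2 ratio of -0.27 at a limit of 100 and with no filter, where another probe stands for it. Without detrending 694 genes were higher and 1203 lower. The medians of the Wnt, Notch, prostaglandin, angiogenic, EGF, hedgehog, Hox, heat shock, unfolded protein, retinoid, glycolysis, respiratory chain, ribosome biogenesis and pro-adipogenic lists changed sign in at least 1 setting. Signals near background limit the size of the largest folds.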

Other observations

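Some lists had different numbers of called members in control cells, read at the same probes as in knockdown cells. Over all compared genes, 8.6% were higher and 8.6% lower in control cells, against 6.24% and 10.3% in knockdown cells. Of 16 mature adipocyte genes, 8 were higher and 2 lower in control cells against 5 and 3 in knockdown cells, with median log2 ratios of 1.03 and 0.24. The leptin gene Lep was 4.71-fold higher in control cells and 1.13-fold in knockdown cells, and Agt, which encodes angiotensinogen, 10.9-fold and 2.22-fold. Of 22 TGFβ and activin genes, 2 were higher and 2 lower in control cells, near the share of all genes there, against 7 and 4 in knockdown cells. Of 17 hypoxia-responsive genes, 3 were higher and 1 lower in control cells against 7 and 2. The clock genes had a median of -0.32 in control cells and of 0.46 in knockdown cells. Osteoglycin (Ogn) was 1.90-fold lower in control cells and 14.7-fold lower in knockdown cells, and Igf1 had log2 ratios of -0.80 and -3.81. None of these differences was tested, and the control comparison crosses slides.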
